A study of Arabidopsis thaliana with 2 samples.

Results

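SnRK1 is the plant counterpart of yeast SNF1 and animal AMPK, a kinase that is active when cellular energy is low and that shifts transcription from growth towards the breakdown of reserves. It works as a complex of a catalytic alpha subunit (KIN10 or KIN11), a beta subunit that holds the complex together and helps set where in the cell it acts, and a regulatory gamma-type subunit. Its activity is commonly read from transcripts that accumulate in starved or darkened leaves. The genes described here are the subunit genes of this complex and 2 such starvation genes, SEN5 and CCL. Of the 9 genes listed by locus, 5 had a probe set that the array annotation pairs with exactly 1 gene, out of 13355 genes with such a probe set in all. These were the 3 beta subunit genes, AKINBETA1 (AT5G21170), AKINBETA2 (AT4G16360) and AKINBETA3 (AT2G28060), together with SEN5 (AT3G15450) and CCL (AT3G26740). The catalytic subunit genes KIN10 (AT3G01090) and KIN11 (AT3G29160), and SNF4 (AT1G09020) and KING1 (AT3G48530), were not analysed here, so the measurements bear on the beta arm of the complex and not on its catalytic or gamma-type subunits.

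The cells were protoplasts, leaf mesophyll cells stripped of their walls, from Arabidopsis thaliana. They came from the fifth and the sixth leaves of 36 soil-grown plants, and a single pool was divided between both conditions. The hypoxia group was kept in a 15 ml tube, submerged 25 mm deep in 2 ml of mannitol buffer for 6 h. The control group, with as many cells, was spread 0.6 mm deep in 10 ml of buffer in a dish 150 mm wide for 6 h, and the light was 80 microeinstein for both. Each group had 1 array, and no genotype or treatment beyond these is given in the labels. Oxygen supply cannot be told apart from the vessel, or from a cell density that was 5.0 times higher in the tube.

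Values are array intensities on a linear scale, printed as deposited. Log2 ratios are hypoxia over control, taken after both arrays were scaled to a common median, with values under a floor (a scaled intensity of 165.7) set to it. A gene was measured when it exceeded the floor on at least 1 array, which 7972 genes did. Hypoxia was at least 2-fold higher for 1037 of these genes (13.0%) and at least 2-fold lower for 1156 (14.5%), so that 47.3% of the genes past 2-fold were higher. That share was 85.4% with centring on reference genes, 17.7% with centring on the hybridisation control probe sets and 61.8% with a lower floor. The 2 centrings moved the median ratio of all measured genes by 0.47 and -0.48. With 1 array per group there is no replicate check and no p-value, and the number of arrays limits the precision. The only error that could be measured was the spread between probe sets of a gene: in 74 genes with a pair of probe sets, all above the floor in both groups, the SD of the log2 ratio was 0.34, and the members of a pair were at most 1.22 apart. Cultures and RNA preparations add error that this SD does not hold.

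Known marker genes of the labelled tissue were present. Of 10 listed mesophyll genes, 4 had a single-gene probe set, and the others were not analysed here. These 4, RCA, LHCB4.1, PRK and SBPASE, were all above the floor on both arrays. They had intensities of 12385.8 to 57111.2 in hypoxia and 4958.2 to 35119 in control. Their log2 ratios were 0.75 to 1.41, with a median of 1.12 that is near the AKINBETA1 ratio given below. PRK and SBPASE, 2 of the 4, were past 2-fold higher, against 13.0% of all measured genes. With reference gene centring 4 of 4 were past 2-fold higher, against 25.2% of all measured genes. With hybridisation control centring 0 of 4 were, against 6.67%. The guard cell gene FAMA was at 327.8 in hypoxia and 294.8 in control, and GC1 was at 175.4 in hypoxia and under the floor in control. The phloem gene SWEET11 was at 1020.2 in hypoxia and 212.4 in control. The other guard cell and phloem genes of the lists, and all listed epidermis genes, were not analysed here. Levels of different probes are not comparable, so these values give no proportions of cell types. The part of these markers in the results below was not tested. All 5 low-oxygen genes listed as a check, HRA1, HRU1, HUP32, HUP26 and CML38, were at least 2-fold higher in hypoxia. Their log2 ratios were 1.97 to 6.08, and 13.0% of all measured genes were past 2-fold higher. HRA1 and HRU1 were under the floor in control, so their ratios of 2.75 and 3.95 are lower bounds. Under a higher floor (60th percentile) 4 of 5 were past 2-fold higher, against 12.1% of all measured genes. This list was chosen with earlier results of these data known, so the count is not an independent check. The reference genes SAND, TIP41 and UBC21 lay at -0.91 to -0.03.

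The 3 beta subunit genes differed in opposite directions. AKINBETA1 was higher in hypoxia, AKINBETA2 was lower, and AKINBETA3 lay below control but within 2-fold. All 3 stood above the floor on both arrays, each read by a single gene-specific probe set. In a bulk sample of this kind, a difference in RNA per cell cannot be told apart from a difference in the number of cells that carry it.

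AKINBETA1, a beta subunit with a carbohydrate-binding module, had an intensity of 5226.3 in hypoxia and 2577.5 in control. The log2 ratio was 1.07, or 2.09-fold higher, just past 2-fold. A higher ratio was held by 952 of the measured genes, 11.9% of them. Among 936 genes of like brightness (mean log2 intensity within 0.5), the median ratio was -0.05 and 15.9% were at least 2-fold higher. The call rests on the scaling, since the ratio was 0.56 with hybridisation control centring and 1.67 with reference gene centring. RefSeq lists 3 transcripts of this gene, which the probe set does not separate here.

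AKINBETA2, which is built like AKINBETA1 and shares its carbohydrate-binding module, had an intensity of 516.5 in hypoxia and 1808.3 in control. The log2 ratio was -1.76, or 3.39-fold lower. A lower ratio was held by 253 measured genes, 3.17% of them. Genes of like brightness were lower as a body: the median ratio of 1472 of them was -0.32, and 20.8% were at least 2-fold lower. AKINBETA2 lay 1.44 below that median. It stayed at least 2-fold lower under all 9 alternative settings, between -2.26 with hybridisation control centring and -1.15 with reference gene centring. By construction, the floor at the 20th percentile and the mean of all probe sets cannot move AKINBETA2. In hypoxia its scaled intensity was 3.17 times the floor, the nearest to the floor of the 5 members.

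AKINBETA3, a short plant-type beta subunit without the carbohydrate-binding module, had an intensity of 960.2 in hypoxia and 1592.6 in control. The log2 ratio of -0.68, a 1.61-fold difference, was 0.38 below the median of 1514 genes of like brightness. That distance is close to the probe set SD of 0.34. The ratio was -0.08 with reference gene centring and -1.19, past 2-fold, with hybridisation control centring.

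**Figure D1:**
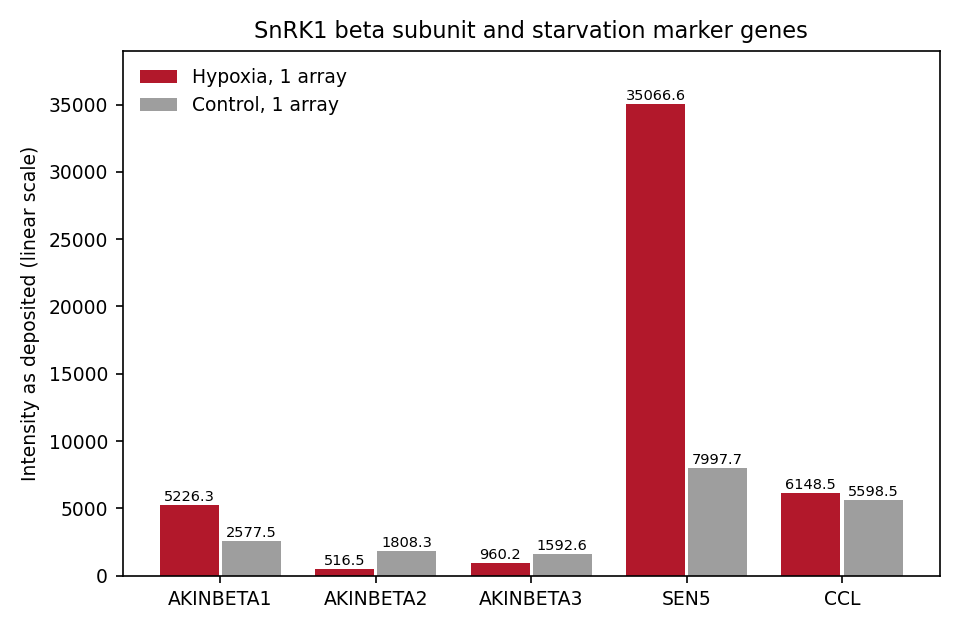
Intensity as deposited (linear scale, 1 array per bar) of the 3 beta subunit genes, SEN5 and CCL in hypoxia (red, left) and control (grey, right). The hypoxia bar is the taller for AKINBETA1, SEN5 and, by a small margin, CCL, and the shorter for AKINBETA2 and AKINBETA3; bar heights of different genes come from different probes and are not comparable.

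The contrast among the beta subunits depends little on how the arrays are scaled, because a factor applied to an entire array cancels between genes. The AKINBETA1 ratio exceeded the AKINBETA2 ratio by 2.83 on the log2 scale, a 7.10-fold unequal change, and by 2.47 to 2.83 over all settings. It exceeded the AKINBETA3 ratio by 1.75, with a range of 1.58 to 1.75. Both differences are larger than that of any of the 74 pairs of probe sets of a single gene. Such pairs hold probe set error only, and how often unrelated genes lie as far apart was not counted. The AKINBETA3 and AKINBETA2 ratios were 1.08 apart, which 1 of the 74 pairs exceeded. These figures show an unequal change between probe sets on these arrays, and the spread between cultures was not measured.

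**Figure D2:**
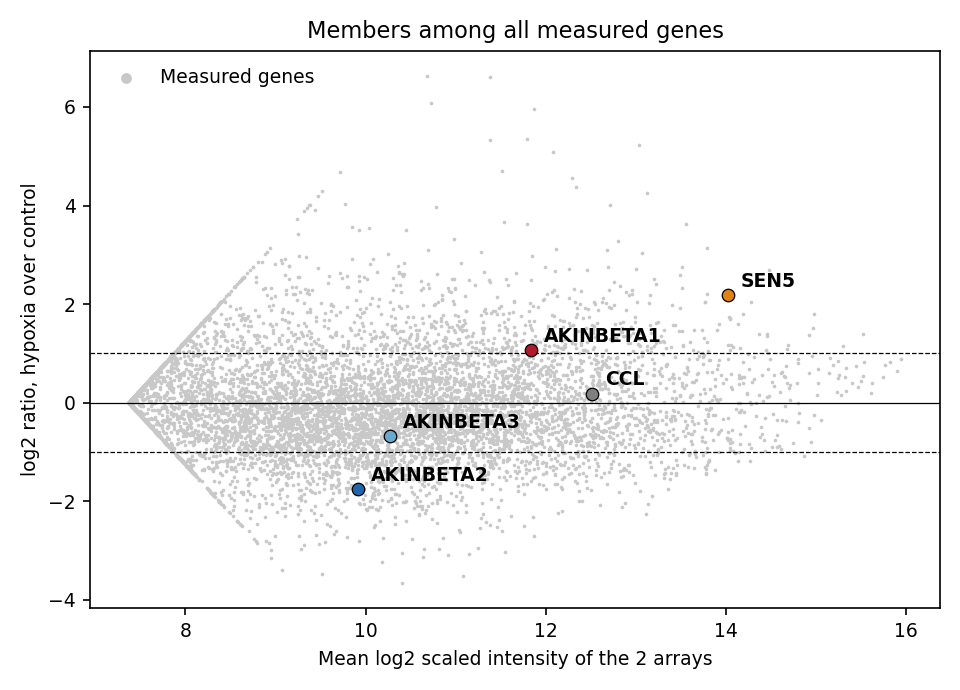
Log2 ratio of hypoxia over control against the mean log2 scaled intensity of both arrays for the 7972 measured genes (grey points), with the 5 members named and dashed lines at 2-fold. SEN5 stands at the bright end at 2.18, AKINBETA1 just above the upper dashed line at 1.07, CCL near 0, and AKINBETA2 below the lower dashed line at -1.76; the slanted left edges are genes at the floor on 1 array.

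The pair of starvation genes differed from each other. SEN5 was higher in hypoxia, whereas CCL was nearly level. SEN5, a senescence-associated gene whose transcript accumulates in the dark and on KIN10 expression, had an intensity of 35066.6 in hypoxia and 7997.7 in control. The log2 ratio was 2.18, or 4.53-fold higher, and 175 of the 7972 measured genes had a higher one. It was already bright in control, where 96.0% of genes were dimmer, and in hypoxia 99.6% of genes were dimmer. Among 207 genes of like brightness, 16.9% were at least 2-fold higher, with a median of 0.04. SEN5 stayed at least 2-fold higher under all 9 alternatives, from 1.68 to 2.79. Among these, the other floors and the mean of all probe sets leave the SEN5 ratio unchanged by construction.

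CCL, named for its likeness to the clock-regulated CCR genes and known for an unstable transcript that cycles with the day, had an intensity of 6148.5 in hypoxia and 5598.5 in control. The log2 ratio was 0.18, or 1.13-fold, which is less than the probe set SD, and it turned to -0.32 with hybridisation control centring. Like SEN5 it was among the brighter genes, with 94.2% of genes dimmer in hypoxia and 93.7% in control. The SEN5 ratio exceeded the CCL ratio by 2.00, a range of 1.84 to 2.00 over all settings, and none of the 74 same-gene pairs was as far apart. Leaves for both groups were harvested early in the light period, and both groups stood for the same 6 h.

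**Figure D3:**
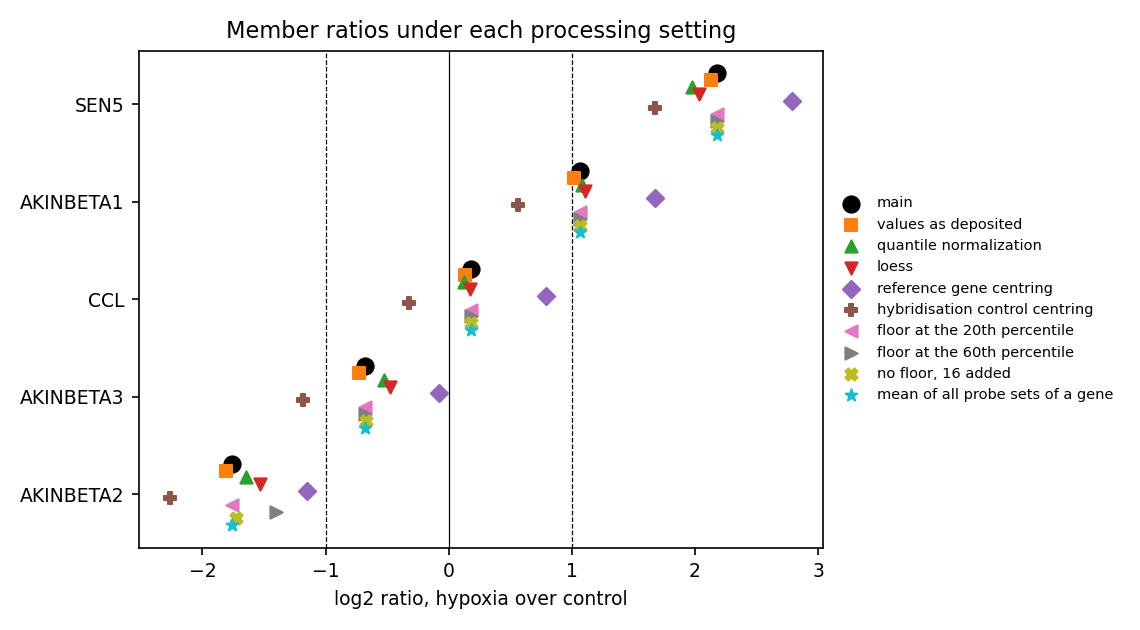
Log2 ratio of hypoxia over control of the 5 members under the reported setting (black circle) and 9 alternatives (coloured symbols), with dashed lines at 2-fold. Each gene keeps its place in the order of the 5, while reference gene centring moves all 5 to the right and hybridisation control centring moves all to the left. A centring moves all 5 by the same amount, so it cannot change the order.

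Among the 5 measured members, 2 were past 2-fold higher in hypoxia, 1 was past 2-fold lower and 2 lay within 2-fold, against shares of 13.0% and 14.5% among all measured genes. Their median log2 ratio was 0.18, and that of all measured genes was -0.07. Since the members lie on both sides of 0, no direction holds for the group.

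SEN5 belongs to a small protein family, known from an aluminium-induced member, and all 4 of its relatives were measured. HUP54 (AT4G27450), which is also counted among the low-oxygen genes whose function is unknown, had an intensity of 29012 in hypoxia and 485.1 in control, a log2 ratio of 5.95. AILP1 (AT5G19140) had 31719.9 in hypoxia and 15663.5 in control, and AT5G43830 had 6247.6 in hypoxia and 3174.6 in control. Their ratios of 1.06 and 1.02 are just past 2-fold. AT3G22850 was at 1267.7 in hypoxia and 1517.5 in control, a ratio of -0.21 that turned to 0.39 with reference gene centring. A 2-fold higher value in hypoxia was thus found for 3 of the 4 and a 2-fold lower one for 0, against 13.0% and 14.5% of all measured genes, and the median was 1.04. The count of 3 was 2 with values as deposited and with loess, where 12.3% and 13.9% of all measured genes were past 2-fold higher. It was 1, HUP54, with quantile normalization, where 13.6% of all measured genes were past 2-fold higher, and with hybridisation control centring, where 6.67% were. SEN5 therefore stood between HUP54 and the other 3 in ratio.

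Of 19 other genes known to be induced by starvation or by KIN10, 6 had a single-gene probe set, and all 6 were measured. The rest of the list was not analysed here. In hypoxia 3 of the 6 were past 2-fold higher and 0 past 2-fold lower, against 13.0% and 14.5% of all measured genes. The median of their log2 ratios was 1.29, with ATL8 entered at its lower bound. It was 0.79 with hybridisation control centring, where 3 of 6 were again past 2-fold higher, against 6.67% of all measured genes. With the floor at the 20th percentile the median was 2.02 and with 16 added in place of a floor 2.24. In both, 4 of 6 were past 2-fold higher, against 20.2% and 18.1% of all measured genes. The gene added to the count in both was ATL8, which is under the reported floor in control. Their high ratios in these cells were known when the list was drawn up, so the count is not independent evidence of a direction. MCCA, which encodes part of a carboxylase of the leucine breakdown route, had 2747.8 in hypoxia and 453.4 in control. ETFQO, whose product feeds electrons from the same route into the mitochondrial ubiquinone pool, had 2986.3 in hypoxia and 534.6 in control. ATG8E, whose product coats autophagosome membranes, had 11728.8 in hypoxia and 3043.9 in control. Their ratios were 2.65, 2.53 and 1.99, so that the SEN5 ratio of 2.18 lay within the range of these 3 genes. AKINBETA1 lay lower, between ATG8E and IVD, an enzyme of leucine breakdown at 0.59. CCL lay near the low end, by AT4G36580 at -0.07. ATL8, a RING finger gene, was under the floor in control and at 189.3 in hypoxia, which gives only a bound of at least 1.16-fold higher.

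**Figure D4:**
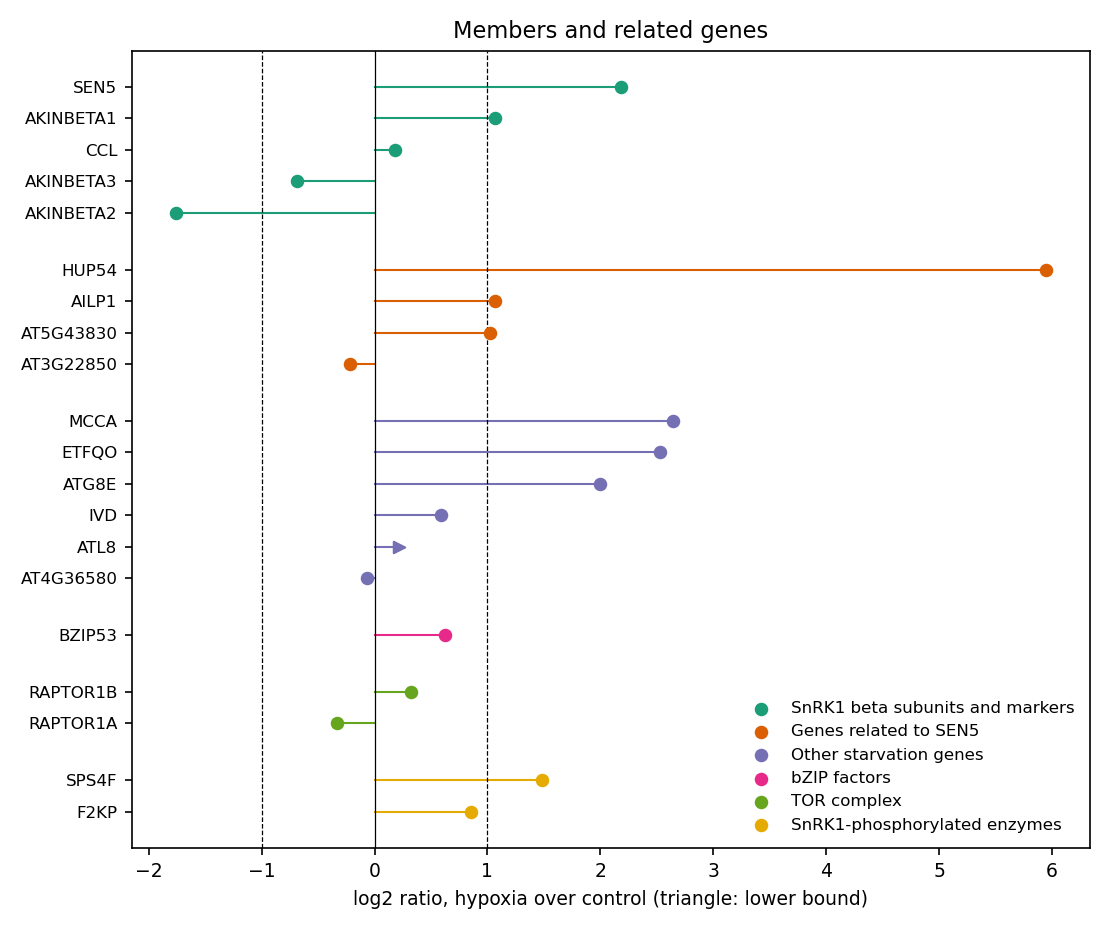
Log2 ratio of hypoxia over control for the 5 members and for measured genes of related lists, grouped by colour, with dashed lines at 2-fold and a triangle for a lower bound. HUP54 at 5.95 is the farthest to the right and AKINBETA2 at -1.76 the farthest to the left of the genes drawn.

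Few genes that act with the complex could be read. BZIP53, a transcription factor of the group whose dimers act downstream of SnRK1, had 7467.5 in hypoxia and 4998.7 in control, a ratio of 0.63, while BZIP44 was under the floor on both arrays. The BZIP53 ratio was 1.23, past 2-fold, with reference gene centring. TOR is the growth-promoting kinase that SnRK1 opposes, and both genes of its RAPTOR subunit were measured. RAPTOR1B had 2988.4 in hypoxia and 2462.6 in control, a ratio of 0.33, and RAPTOR1A had 422.2 in hypoxia and 549.3 in control, a ratio of -0.33. Neither was past 2-fold, and each changed sign under 1 of the 2 centrings. PV42A (AT1G15330), a relative of the gamma-type subunits, was under the floor on both arrays. Among enzymes of kinds that SnRK1 kinases phosphorylate, a list added after other values had been seen, SPS4F, a sucrose phosphate synthase, had 2544.2 in hypoxia and 940.2 in control, a ratio of 1.48. F2KP, which makes and breaks down the regulator fructose 2,6-bisphosphate, had 4550.3 in hypoxia and 2601.4 in control, a ratio of 0.85. SPS4F came within 2-fold at 0.98 with hybridisation control centring, and F2KP was past 2-fold at 1.46 with reference gene centring. The trehalose phosphate synthases and the SnRK2 and SnRK3 kinases, sister families of SnRK1, were not analysed here.

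The genes whose pair of values lay nearest to those of SEN5, CCL and AKINBETA1 were found by distance over the 2 arrays, on the scaled log2 scale. Nearest to SEN5 was AT4G18950, at 35515.3 in hypoxia and 8407.4 in control, at a distance of 0.07. AT1G32920 and AT1G73920 followed, at distances of 0.32 and 0.33. Nearest to AKINBETA1 were LrgB, AT5G23610 and AT3G47650, at 0.004, 0.05 and 0.05. Nearest to CCL were the plastid gene petL, AT5G11710 and AT2G44060, at 0.07, 0.08 and 0.09. With 2 arrays, such nearness describes a level and a ratio only.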

How the data were processed

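Total RNA of 1 hypoxia and 1 control sample was labelled with biotin for hybridisation, per the labels' protocols, to an Affymetrix array. The deposited values are probe set intensities on a linear scale, 1 column per array. GCOS 1.0 is named per the submitters' processing notes, while its settings and the genome build are not given in the sources used here. The authors' scaling was read from the intensity values: trimmed of 2% at either end, the mean was 1500.1 for each array. No detection calls were used.

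Of 22746 probe sets other than 64 controls, an older platform annotation pairs 13513 with 1 gene and 503 with several. Symbols were updated by Entrez identifier from RefSeq (TAIR10.1), which matched 13436. No coordinates or sequences are printed. A gene with several probe sets was represented by its brightest one on the mean log2 scale. Arrays were scaled to a common median over the 22746 probe sets (the medians were 334.2 for hypoxia and 345.2 for control). Scaled values of both arrays were pooled, those under their 40th percentile were set to it, and the log2 ratio was taken. No test is possible with 1 array per group. Alternatives were values as deposited, quantile normalization, loess (span 0.3), centring on 3 reference genes or on 18 hybridisation controls, floors at the 20th and 60th percentiles, 16 added in place of a floor, and the mean of all probe sets of a gene.

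The members and lists were chosen with earlier results of these data known. The text names every member, every measured gene of a list with 10 or fewer measured genes, and the 3 nearest genes of SEN5, CCL and AKINBETA1. The comparison with genes of like brightness, the differences between ratios and the list of phosphorylated enzymes were added after values were seen. The arithmetic was tested on simulated data with large changes in bright genes only. That test does not bear on smaller changes or on error between cultures. Python 3.11.15 with pandas 2.3.3, numpy 2.4.6, scipy 1.17.1 and statsmodels 0.14.6 was used.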

Additional observations from a re-analysis of the deposited data

How the results depend on the processing

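Ratios within the probe set SD of the reported ones were found under 6 or 7 of 9 alternatives for each member. That tally is partly fixed in advance. Each member has 1 probe set, so the mean of all probe sets changes nothing. The floor at the 20th percentile lies under all their values, and the floor at the 60th percentile reaches only AKINBETA2. With reference gene centring the log2 ratios were 1.67 for AKINBETA1, -1.15 for AKINBETA2, -0.076 for AKINBETA3, 2.79 for SEN5 and 0.79 for CCL. With hybridisation control centring they were 0.56, -2.26, -1.19, 1.68 and -0.32 in the same order. In that setting 1 member was at least 2-fold higher and 2 were at least 2-fold lower, against 6.67% and 31.0% of all measured genes. With the floor at the 60th percentile AKINBETA2 was at -1.40, because its hypoxia value was then set to the floor, and the AKINBETA1 minus AKINBETA2 difference was 2.47. Over all genes, the counts at least 2-fold higher and lower were 2059 and 352 with reference gene centring, 528 and 2455 with hybridisation control centring, and 632 and 686 under the higher floor; 2273 were higher with the floor at the 20th percentile. By construction either centring shifts all ratios with neither value at the floor by the same amount, and other ratios by different amounts. Which centring is nearer to the true level was not tested. Of 342 values for 39 other genes under the alternatives, 256 lay within the probe set SD of the reported ratio and 86 moved farther. Among ratios past 2-fold, 0 changed sign. This 0 was largely fixed in advance, since neither centring shifts a ratio by as much as 2-fold and a floor cannot change a sign. The 256 was partly fixed too, since a gene with 1 probe set cannot move with the mean of all probe sets. Both groups came from a single pool, so the arrays form 1 pair. With only 1 pair no paired test was possible, and no test was run.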

Other observations

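The genes next to the 5 members on the chromosome were looked up by their order in RefSeq, after the member values had been seen. Of 10 such neighbours, 3 had a single-gene probe set and 2 of these were measured. AT3G15460, which lies beside SEN5, had an intensity of 649.9 in hypoxia and 1874.3 in control, a log2 ratio of -1.48, opposite in direction to the SEN5 ratio. AT3G15440 on its other side was under the floor on both arrays. AT3G26730, which lies beside CCL, had an intensity of 3470 in hypoxia and 1529 in control, a log2 ratio of 1.23, while CCL itself was at 0.18.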
